A study of Homo sapiens with 132 samples.

Results

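The comparison described here is NCI-N87 gastric cancer cells exposed to afatinib for 4 h against untreated NCI-N87 cells at the same time point. Its members were chosen by the labels alone: cell line N87, time 4 h, treatment Afa without trastuzumab or untreated, which gave 3 libraries per group, or 6 of the 132 samples of the series. All genes were considered, and the replicate number was used as a pair. NCI-N87 is an established line from a metastasis of a gastric carcinoma with amplified ERBB2 (the gene of HER2), and the study called it an afatinib responder. Cells were grown in RPMI medium with fetal calf serum, both groups alike. The treated group received 0.5 µM afatinib dissolved in DMSO, whereas the control received neither drug nor solvent, so drug and solvent cannot be told apart. Nothing in the labels says that the 3 replicates came from separate cultures, so p-values measure the spread between these samples, which may be technical. Effects are also read below in NCI-N87 cells at 4 h with trastuzumab (5 µg/ml, a HER2 antibody) or trastuzumab + afatinib. Further comparisons use NCI-N87 cells untreated or with afatinib at 24 h, and MKN7 and Hs746T gastric cancer cells untreated or with afatinib at 4 h. The fits also took in libraries that no comparison reads. These were NCI-N87 at 24 h, and MKN7 and Hs746T at 4 h, with trastuzumab or trastuzumab + afatinib. MKN1, a further gastric cancer line, entered at 4 h, untreated or with afatinib, trastuzumab or both. Each of these groups had 3 libraries. The study called MKN7 an afatinib responder too and Hs746T a non-responder.

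Afatinib binds irreversibly to the kinase domains of the HER family, that is EGFR, HER2 and HER4. In HER2-amplified cells these receptors, with the kinase-impaired partner HER3, feed the RAS-ERK cascade and the PI3K-AKT pathway. ERK activity induces immediate early transcription factors and, with them, phosphatases and adaptors that shut the cascade down again. AKT keeps FOXO transcription factors out of the nucleus, and FOXO targets include genes of cell cycle arrest, starvation responses and apoptosis.

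Total counts ranged from 49216446 to 59840143 in the 6 libraries. The 20 epithelial markers summed to 20771 to 22988 CPM (read counts scaled to a common library size) in untreated and 16527 to 19575 CPM in afatinib libraries. Keratins, EPCAM and CDH1 were abundant, whereas TFF1, CEACAM5 and VIL1 stayed below 2 CPM and CEACAM6, CDX1 and TFF3 were listed at 0. The blood and endothelial list of 14 genes summed to 6.72 to 7.81 CPM in untreated and 7.41 to 7.89 CPM in afatinib libraries, with CD3D, CD68 and MS4A1 among those listed at 0. The mesenchymal list of 14 genes summed to 271.4 to 404.6 and 259.2 to 364.9 CPM, mostly FN1. No gene of the 3 marker lists was regulated. The epithelial sum was lower in every afatinib library, and its part in the results was not tested. Of the 671 genes on the lists used here, 49 were listed at 0 in all 48 libraries of the 4 h fit, among them genes most cells use such as CDK2 and HSPE1, and also DUSP1, FOSB and JUNB. A 0 for such a gene is therefore no evidence that it was not expressed, and this holds for CD68 as well.

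A gene is called regulated here if its p.adjust (edgeR quasi-likelihood test, Benjamini-Hochberg over 19078 genes) was below 0.05 and its log2FC beyond 1 in either direction. By this rule 731 genes were regulated at 4 h, 3.83% of the genes tested. Of these, 469 rose (2.46%) and 262 fell (1.37%). With p.adjust alone 16.3% of genes were higher and 16.6% lower, and the median log2FC of all genes was 0.02. Protein-coding genes made up 433 of the regulated genes, with 252 higher and 181 lower. The other 298 were lincRNAs, antisense RNAs and further types, of which 217 were higher. No strand setting of the counting is stated, so reads of the 88 antisense RNAs and of their partner genes cannot be told apart. Most regulated genes were scarce: a mean log2 CPM above 1 was reached by 151 of the risers and 155 of the fallers. In bulk RNA, fewer cells of a type and less RNA per cell cannot be told apart. All 3 same-numbered pairs moved the same way for 465 of the 469 and 259 of the 262 genes. These genes were called from the same pairs with a fold limit, so that count is no separate support.

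**Figure D1:**
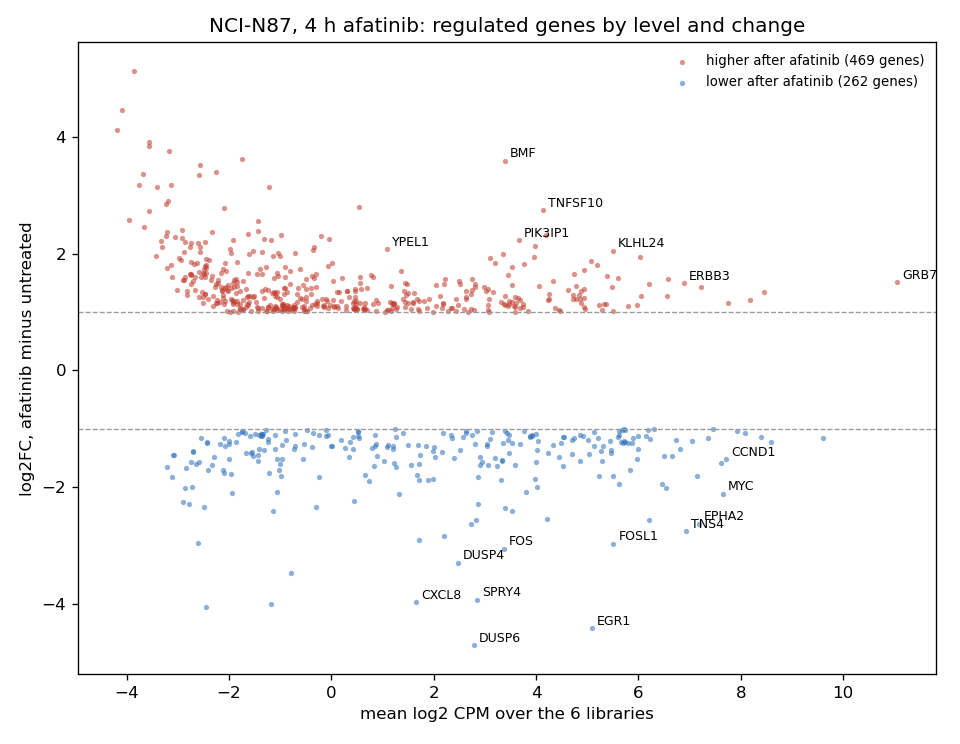
Each point is a regulated gene of NCI-N87 cells at 4 h, by its mean log2 CPM over the 6 libraries (x axis) and its log2FC of afatinib minus untreated (y axis), red for the 469 higher and blue for the 262 lower genes, with dashed lines at the fold limit. The largest falls among well-expressed genes reach beyond -4 (DUSP6, EGR1), while the largest rise among them is BMF at 3.59 and the highest red points on the left are scarce transcripts.

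The drug's own targets were read first. ERBB2 was the most abundant receptor transcript per length, with 1147 CPM per kb of exon in untreated cells against 15.1 for EGFR, 7.85 for ERBB3 and 0.0337 for ERBB4. ERBB3, the gene of HER3, had 74.3, 70.3 and 68.1 CPM in the untreated and 227, 197 and 178 CPM in the afatinib libraries. The groups were far apart and ERBB3 rose 2.82-fold (log2FC 1.49 ± 0.06 SE, p.adjust 2.2e-13), the only receptor past the fold limit. ERBB2 had 12334, 11648 and 11527 CPM without and 14775, 13203 and 13085 CPM with afatinib. These groups did not overlap either, but the difference was small, with a log2FC of 0.21 ± 0.07 and p.adjust 0.034. EGFR had a log2FC of -0.41 ± 0.07, with overlapping groups. ERBB4 did not pass the test at 0.0425 to 1.04 CPM, where 3 counts are worth 0.0496 to 0.0638 CPM. Without untreated replicate 1 the receptor list had 2 risers instead of 1.

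GRB7, an adaptor that binds activated HER2 and lies next to ERBB2 on chromosome 17, rose as well. Its CPM were 1189, 1502 and 1108 in untreated and 3903, 3752 and 3173 in afatinib cells. Every afatinib library was above every untreated one, and GRB7 rose 2.85-fold (log2FC 1.51 ± 0.12, p.adjust 2.7e-09). No other of 6 neighbours was regulated. STARD3, TCAP and PGAP3 had log2FC of -0.15, -0.15 and 0.13 and did not pass the test, whereas MIEN1, IKZF3 and PPP1R1B passed on p.adjust alone with 0.59, 0.59 and 0.43. GRB7 and these neighbours were chosen after their values were seen. GRB7 spans chr17:39737927-39747291 and ERBB2 chr17:39687914-39730426 in GRCh38.

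Among the 11 tested ligands of the family, none rose and 3 fell, against 2.46% and 1.37% of all genes. All 3 fallers are soluble growth factors for EGFR. Epiregulin (EREG) had 69.8, 94.5 and 53.4 CPM without and 19.1, 22.7 and 19.0 CPM with afatinib. Amphiregulin (AREG) had 23.3, 36.0 and 24.3 against 8.42, 9.86 and 9.69 CPM. Both were clearly separated, with log2FC of -1.82 ± 0.10 and -1.57 ± 0.12. HBEGF followed with a log2FC of -1.18 ± 0.11. TGFA stayed inside the fold limit at -0.78 ± 0.05 (p.adjust 1.4e-10), and the neuregulin genes NRG1 and NRG2, ligands of HER3 and HER4, did not pass the test.

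The strongest fall of any well-expressed gene was in the feedback arm of the ERK pathway. DUSP6, a phosphatase that removes the activating phosphates from ERK in the cytoplasm, had 24.4, 54.6 and 31.6 CPM in untreated cells and 1.64, 1.09 and 1.33 CPM after afatinib. The untreated libraries spread over a wide range, replicate 2 being the highest, yet all lay far above the treated ones. DUSP6 fell 26.3-fold (log2FC -4.71 ± 0.24, p.adjust 2.9e-12). SPRY4, an inhibitor of receptor-to-RAS signalling, had 25.7, 34.6 and 24.4 CPM without and 1.74, 2.17 and 1.61 CPM with the drug, a log2FC of -3.93 ± 0.13. DUSP4, a nuclear ERK phosphatase, had 18.3, 17.7 and 15.7 against 2.01, 1.84 and 1.40 CPM, and its 3 untreated libraries hardly differed from each other. DUSP5, a further nuclear ERK phosphatase, fell by 2.55 on the log2 scale.

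Of 22 tested feedback genes 11 fell and 1 rose, against 1.37% and 2.46% of all genes. The list median log2FC was -0.73, beside 0.02 for all genes. The other fallers were DUSP2, DUSP7, SPRY1, SPRY2, SPRED1, SPRED2 and ERRFI1, the last of which binds and inhibits EGFR itself. Their log2FC lay between -2.42 (DUSP2) and -1.21 (SPRED1). SPRY3 went the other way, from 28.8, 28.9 and 25.7 to 58.2, 64.0 and 61.1 CPM (log2FC 1.13 ± 0.07). The fall was thus shared by the Sprouty members SPRY1, SPRY2 and SPRY4 but not by SPRY3. DUSP10, whose substrates are mainly p38 and JNK rather than ERK, had a log2FC of 0.84, inside the fold limit, and the receptor inhibitors LRIG1 and LRIG3 were also positive with 0.39 and 0.32.

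**Figure D2:**
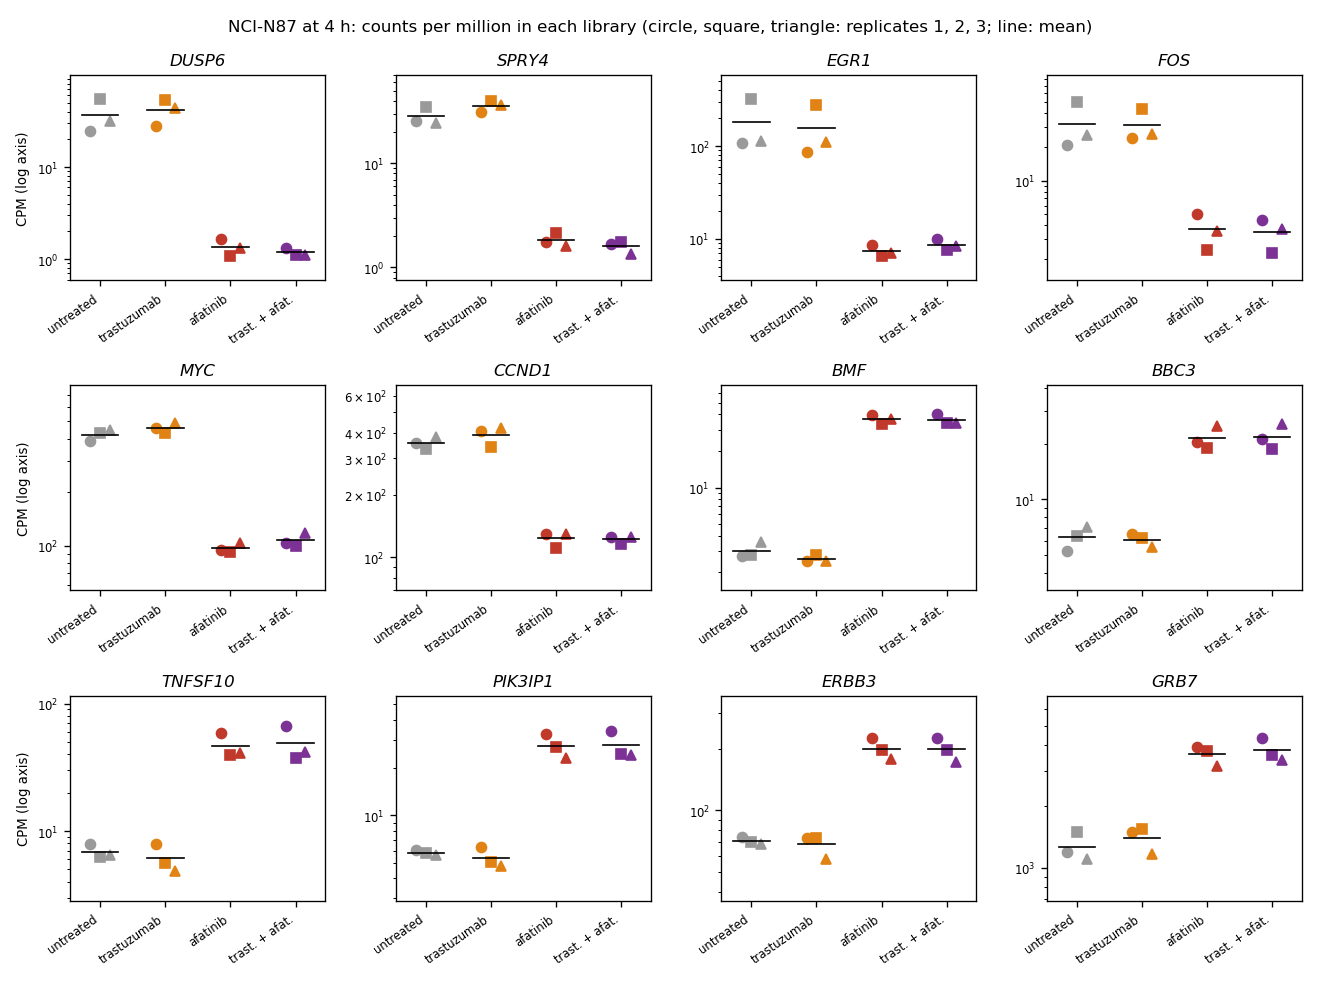
CPM (log axis) of 12 genes in NCI-N87 cells at 4 h are shown for untreated, trastuzumab, afatinib and trastuzumab + afatinib libraries, one symbol per replicate number and a line at each group mean. In all 12 panels the afatinib and combination libraries lie on one side and the untreated and trastuzumab libraries on the other, for example DUSP6 at 1.09 to 1.64 CPM with afatinib and 24.4 to 54.6 CPM without.

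Immediate early transcription factors fell next to them. EGR1, a zinc finger factor induced within minutes of growth factor signalling, had 107, 320 and 113 CPM in untreated and 8.62, 6.62 and 7.06 CPM in afatinib libraries. Untreated replicate 2 was again the highest, and the groups did not overlap. EGR1 fell with a log2FC of -4.42 ± 0.41 (p.adjust 2.6e-08). FOS, a subunit of AP-1, had 20.9, 50.01 and 25.3 against 5.07, 2.43 and 3.58 CPM, a log2FC of -3.06 ± 0.38. FOSL1, the AP-1 subunit most tied to sustained ERK activity, had 119, 156 and 111 against 21.4, 15 and 13.3 CPM, a log2FC of -2.97 ± 0.14. Of the 19 tested members 8 fell and none rose, against 1.37% and 2.46% of all genes. The other fallers were MYC, MAFF, IER2, IER3 and the scarce EGR2. The calls of EGR2 and IER2 were lost without replicate number 2 (log2FC -1.04, p.adjust 0.061, and -0.99), that of EGR2 also without untreated replicate 2 (-0.98). The AP-1 partners differed within the list: JUN had a log2FC of -0.52, JUND of 0.34 and FOSL2 of -0.15, all inside the fold limit. SRF itself, the factor that binds many of these promoters, had a log2FC of -0.32.

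The promoter of EGR1 is shown because SRF, with its ETS partners, acts on such genes through CArG boxes. The 250 bases before the RefSeq start (GRCh38.p14, chr5:138465229-138465478, plus strand) hold 2 of them, in capitals, beginning 105 and 83 bases before the start.
EGR1: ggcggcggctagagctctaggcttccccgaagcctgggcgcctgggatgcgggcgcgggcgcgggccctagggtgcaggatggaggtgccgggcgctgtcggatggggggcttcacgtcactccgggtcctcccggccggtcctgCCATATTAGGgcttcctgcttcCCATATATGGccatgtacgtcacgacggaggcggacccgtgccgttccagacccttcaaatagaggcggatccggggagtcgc
A CArG box on either strand was found in 1.08% of 17026 such windows of tested genes, in 1.10% of 181 windows of fallers and in 1.99% of 302 windows of risers. A gene can have several windows.

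The chemokines that attract neutrophils formed a second group of strong fallers. CXCL8 (interleukin 8) had 10.5, 17.8 and 9.79 CPM in untreated and 0.971, 0.546 and 0.876 CPM in afatinib cells. It fell 15.7-fold (log2FC -3.97 ± 0.20, p.adjust 1.9e-12), with no overlap. CXCL1, CXCL2 and CXCL3 were scarcer, at most 7.21 CPM in any library, and fell with log2FC of -1.82, -1.89 and -1.87. Of 12 tested chemokines, these 4 fell and none rose, against 1.37% and 2.46% of all genes. With a filter of at least 10 counts in every library CXCL8 and CXCL1 were no longer tested, which left 2. CXCL1, CXCL2 and CXCL3 are close paralogs, so reads may have been split between them. Their promoters share a stretch that reads GGAATTTCC, a form of the NF-kB site, shown here in capitals within bases 130 to 51 before each RefSeq start.
CXCL8: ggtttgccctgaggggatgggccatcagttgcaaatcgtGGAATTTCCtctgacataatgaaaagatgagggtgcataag
CXCL1: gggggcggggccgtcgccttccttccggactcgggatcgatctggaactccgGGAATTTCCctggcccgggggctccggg
CXCL2: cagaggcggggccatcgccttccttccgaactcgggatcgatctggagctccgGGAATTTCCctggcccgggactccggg
CXCL3: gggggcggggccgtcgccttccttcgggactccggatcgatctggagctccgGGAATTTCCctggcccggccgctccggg
The windows lie in GRCh38.p14 at chr4:73740439-73740518 (plus strand), chr4:73869263-73869342 (plus), chr4:74099246-74099325 (minus) and chr4:74038740-74038819 (minus). Over 49 bases centred on the match, CXCL1 and CXCL3 were identical at 45 positions and CXCL1 and CXCL2 at 41, but CXCL8 and CXCL1 only at 22. GGAATTTCC on either strand occurred in 5 of the 181 windows of fallers, those of the 4 chemokines and of DUSP6, in 1 of 302 windows of risers and in 58 of all 17026 windows.

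Of the 19 tested genes for NF-kB subunits and their feedback none was regulated, against 3.83% of all genes. On p.adjust alone 11 were lower and 4 higher, against 16.6% and 16.3% of all genes, with a median log2FC of -0.24. NFKBIA, the inhibitor that NF-kB induces first, had a log2FC of 0.15 ± 0.09, and TNFAIP3, a further feedback gene, of -0.66 ± 0.13. Among 17 interleukins and growth-factor cytokines 4 fell and 1 rose, against 1.37% and 2.46% of all genes. LIF, a cytokine of the interleukin 6 family, had 148, 216 and 161 CPM without and 42.2, 50.9 and 41.6 CPM with afatinib, a log2FC of -1.95 ± 0.08. CSF2 (GM-CSF) fell from 1.35, 2.17 and 1.13 to 0.162, 0.0496 and 0.073 CPM, the last values close to the worth of 3 counts. IL10 and IL19, members of the interleukin 10 family, were scarcer still. The IL10 call was lost without the replicate block (p.adjust 0.057) and on leaving out most single libraries, and with at least 10 counts in every library LIF alone of the 4 was tested. The 1 riser was TNFSF10, described below among the death genes.

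MYC, the growth-promoting transcription factor, had 386, 428 and 445 CPM in untreated and 95.2, 91.8 and 104 CPM in afatinib cells. It fell 4.32-fold (log2FC -2.11 ± 0.09, p.adjust 3.2e-13), with tight groups. Genes of ribosome biogenesis, many of which MYC activates, shifted by less. Past the fold limit 4 of 44 tested fell and none rose, against 1.37% and 2.46% of all genes. On p.adjust alone 37 were lower and none higher, against 16.6% and 16.3% of all genes, and the list median was -0.52. The fallers were RRS1, WDR43 and the RNA polymerase I subunits POLR1B and POLR1E. POLR1E had -0.96 without afatinib replicate 1 and by library size alone, which ended its call. POLR1B went from 116, 106 and 114 to 49.0, 46.7 and 54.0 CPM.

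Cell cycle genes were read list by list. Of 18 tested G1 genes 1 rose and 1 fell, against 2.46% and 1.37% of all genes. CCND1 (cyclin D1), which starts the passage through G1, had 355, 332 and 380 CPM without and 130, 111 and 130 CPM with afatinib, a log2FC of -1.53 ± 0.08. CDKN1C (p57), an inhibitor of cyclin-dependent kinases, rose from 3.92, 4.86 and 6.91 to 18.7, 18.1 and 25.6 CPM (log2FC 2.0 ± 0.11). CDKN1B (p27) had a log2FC of 0.62 ± 0.06 and CDKN1A (p21) of -0.43 ± 0.10, both inside the fold limit. No S phase gene of 41 was regulated, against 3.83% of all genes, and the list median was -0.04. In the G2/M list 1 of 51 genes was regulated, beside the same 3.83% of all genes. It was the mitotic phosphatase CDC25C at 19.7, 21.6 and 23.6 against 42.3, 42.3 and 49.2 CPM. On p.adjust alone 28 G2/M genes were higher and 3 lower, against 16.3% and 16.6% of all genes, with a median of 0.19.

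BMF, a BH3-only protein that binds BCL2 relatives and triggers apoptosis, had the largest rise of all well-expressed genes. Its CPM were 2.72, 2.80 and 3.55 in untreated and 39.4, 33.4 and 36.6 in afatinib libraries. Replicates of each group were close together, and BMF rose 12.0-fold (log2FC 3.59 ± 0.10, p.adjust 5.4e-16). BBC3 (PUMA), another BH3-only gene, rose from 5.27, 6.34 and 7.15 to 20.3, 19.0 and 25.0 CPM (log2FC 1.77 ± 0.10). BCL2L11 (BIM) had 53.7, 50.8 and 53.6 against 94.4, 89.0 and 84.2 CPM, a separated but smaller difference of 0.76 ± 0.06. The other 5 BH3-only genes lay between -0.31 and 0.25. Thus 2 of 8 tested members rose and none fell, against 2.46% and 1.37% of all genes.

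On the survival side BCL2L1 (BCL-XL) had 234, 272 and 246 against 121, 129 and 124 CPM, a log2FC of -1.01 ± 0.07 that just passed the fold limit. That call was lost, leaving 0 of 6 list members, when scaled by library size alone, with at least 10 counts in every library, without afatinib replicate 1, without untreated replicate 2 or without replicate number 2. BCL2L1 then lay just inside the fold limit, by library size alone at -0.94. MCL1 and BCL2 were inside it with -0.78 and -0.74. TNFSF10 (TRAIL), a ligand of death receptors, rose from 7.86, 6.21 and 6.42 to 58.9, 39.4 and 40.7 CPM, or 6.72-fold (log2FC 2.75 ± 0.10). Its receptor TNFRSF10A moved the other way, from 34.1, 35.2 and 27.8 to 9.12, 8.62 and 6.55 CPM (log2FC -2.0 ± 0.09), and TNFRSF10B had -0.81 ± 0.08. TNFRSF10A was chosen after its value was seen.

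The list of FOXO and insulin-pathway genes had the most risers of the lists read. It holds genes that FOXO factors or low insulin signalling are known to induce, and also genes of the FOXO factors themselves. Of 22 tested 8 rose and none fell, against 2.46% and 1.37% of all genes, and the list median was 0.60. Like the other lists it was chosen with earlier results of these data known, so its count is no separate support. PIK3IP1, an inhibitor of PI3-kinase at the membrane, had 6.04, 5.78 and 5.62 CPM without and 32.6, 27.0 and 22.9 CPM with afatinib (log2FC 2.23 ± 0.12, p.adjust 5.0e-12). CCNG2, an unconventional cyclin found in arrested cells, rose from 29.1, 45.5 and 28.3 to 124, 127 and 135 CPM (log2FC 1.94 ± 0.15). KLHL24, a ubiquitin ligase adaptor, had 20.5, 27.6 and 19.5 against 91.8, 103 and 82.8 CPM (log2FC 2.05 ± 0.08). In each of these 3 genes the groups were well apart.

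PDK4, the kinase that closes entry of pyruvate into the citric acid cycle in fasting, had 8.26, 8.79 and 7.51 against 45.1, 39.1 and 38.8 CPM (log2FC 2.32 ± 0.09). SESN2, BCL6, FOXO4 and the insulin receptor gene INSR also rose, with log2FC from 1.02 to 1.13. All 4 lay close to the fold limit and lost their call on leaving out single libraries: SESN2 had 0.94 and 0.93 without afatinib or untreated replicate 3, BCL6 0.95 without afatinib replicate 1 and FOXO4 0.97 without untreated replicate 1. INSR had 0.90 without afatinib replicate 1, 0.96 without untreated replicate 2 and 0.99 without untreated replicate 3. IRS1, the adaptor of that receptor, had 0.83 ± 0.08. Not all members took part: GADD45A, TRIB1 and TRIB2 were negative at -0.28, -0.96 and -0.85, and FOXO1 and FOXO3 had 0.05 and -0.23. The core FOXO motif GTAAACA, on either strand, was found in 6.29% of the 302 windows of risers, 1.66% of the 181 windows of fallers and 2.41% of all windows. These promoter matches among risers included ARID5B, TCP11L2, HBP1 and OTUD1, but none of the 8 risers of the FOXO list. The AP-1 motif TGANTCA, on either strand, was found in 8.28% of windows of risers, 9.39% of windows of fallers and 5.09% of all. A match is a string of letters and was not tested as a site.

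**Figure D3:**
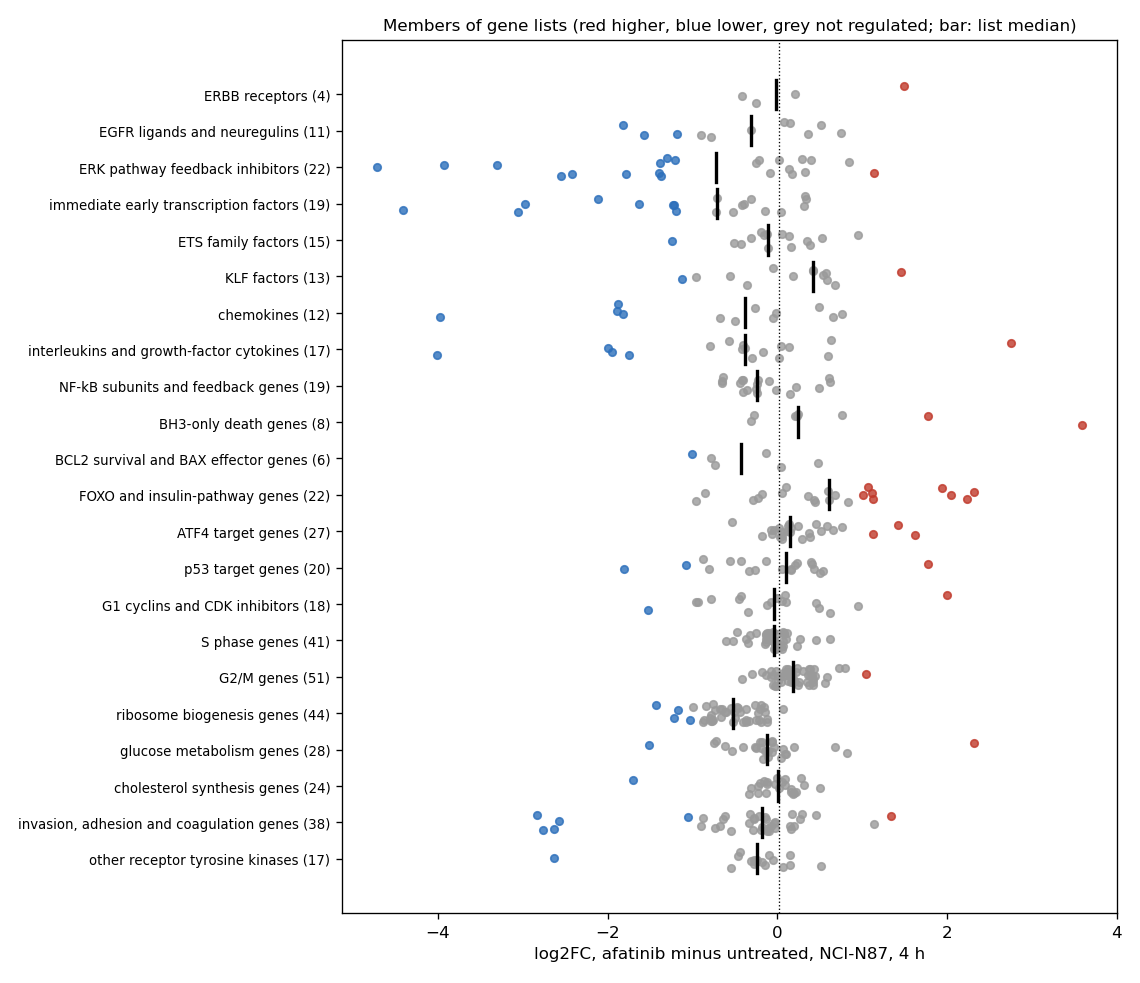
Each point is 1 tested member of a gene list (y axis, number tested in brackets) at its log2FC of afatinib minus untreated in NCI-N87 cells at 4 h (x axis), red or blue if regulated, with a bar at the list median and a dotted line at the median of all genes. ERK feedback and immediate early genes have the lowest list medians, -0.73 and -0.71, and the FOXO and insulin-pathway list has the highest, 0.60. The single point furthest to the right is BMF of the BH3-only list, at 3.59.

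Among the ATF4 targets, which respond to amino acid shortage and ER stress, 3 of 27 rose and none fell. Of all genes 2.46% rose and 1.37% fell. DDIT4, an inhibitor of mTORC1, had 18.9, 25.7 and 27.3 against 80.1, 44.9 and 111 CPM (log2FC 1.62 ± 0.20), and CHAC1, which degrades glutathione, 19.6, 36.7 and 28.2 against 59.2, 62.5 and 110 CPM (1.43 ± 0.18). SESN2, described above with its losses of call, was the other. ATF4 itself had 0.13 and DDIT3 (CHOP) 0.01. In glucose metabolism HK2, which traps glucose in the cell, fell from 106, 113 and 99.1 to 35.3, 41.6 and 34.5 CPM (log2FC -1.51 ± 0.07). HK2 and PDK4 were the only regulated genes of 28, against 3.83% of all genes. The p53 list had 1 riser (BBC3) and 2 fallers (AEN and GDF15) of 20, against 2.46% and 1.37% of all genes. GDF15 lost its call without untreated replicate 2 (-0.88) and, just inside the fold limit, by library size alone and without afatinib replicate 2. The best known members of the list, CDKN1A and MDM2, had -0.43 and 0.24. None of 15 tested genes on the interferon-stimulated list and none of 13 tested heat shock genes was regulated, against 3.83% of all genes. The interferon list held 23 genes, and some of them, such as IRF9, were listed at 0. GBP2, an interferon-inducible gene outside that list, did rise.

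Genes of adhesion, invasion and coagulation included some of the largest falls, although their list of 38 had a median of only -0.18. TNS4 (cten), a focal adhesion protein without an actin-binding part, fell from 354, 337 and 266 to 51.1, 52.8 and 37.8 CPM (log2FC -2.76 ± 0.12). Its relative TNS3 rose from 242, 190 and 227 to 588, 554 and 527 CPM (log2FC 1.34 ± 0.07). The 2 tensins thus moved in opposite directions, each with separate groups. F3 (tissue factor), which starts coagulation, had 183, 205 and 156 against 29.6, 35.2 and 26.7 CPM (log2FC -2.57 ± 0.09). HAS2, which makes hyaluronan, ANKRD1, a target of YAP, and PLAUR, the urokinase receptor, fell with log2FC of -2.84, -2.63 and -1.05. PLAUR had -0.94 without untreated replicate 2 and -0.98 by library size alone, which ended its call. The YAP targets CTGF and CYR61 were inside the fold limit at -0.90 and -0.68.

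EPHA2 was the single regulated gene among 17 other receptor tyrosine kinases, against 3.83% of all genes. It had 328, 411 and 341 CPM in untreated and 67.1, 53.8 and 54.9 CPM in afatinib cells (log2FC -2.63 ± 0.11). MET, a receptor often named in resistance to HER drugs, had -0.27 ± 0.06 and FGFR2 0.52. Single members of further lists were ETV5 of the ETS factors (-1.25), KLF7 (1.45) and KLF6 (-1.12), the Notch ligand JAG1 (-1.94) and the cytokine signalling inhibitors CISH and SOCS2 (-1.51 and -1.03). KLF6 lost its call without replicate number 2 (-0.96), and SOCS2 when scaled by library size alone (-0.96) and without afatinib replicate 1 (-0.96) or 3 (-0.86). All other members of the ETS (15 tested), KLF (13), Notch and BMP (22) and JAK-STAT (21) lists stayed inside the fold limit or failed the test. Across all genes 2.46% rose and 1.37% fell.

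The remaining genes among the 15 largest rises and 15 largest falls, all with a mean above 1 on the log2 CPM scale, were as follows. GBP2 (an interferon-inducible GTPase), YPEL1, YPEL2, TCP11L2, PMM1 (a phosphomannomutase), ARID5B (a chromatin factor), METTL7A and the muscle-wasting ubiquitin ligase FBXO32 rose, with log2FC from 1.80 (FBXO32) to 2.13 (GBP2). RGS16, which switches off G proteins, fell with -2.57 and the lincRNA AP005233.2 on chromosome 11 with -2.90. Without replicate 1, 2 or 3, or without any single one of the 6 libraries, each of these 30 genes kept its direction and its call.

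By 24 h the same drug had reached far more genes, 5867 or 30.8% of those tested. The untreated and afatinib libraries at 24 h are separate from those at 4 h. Of the 469 early risers, 384 were also higher at 24 h, 83 were not regulated and 2 were lower. Of the 262 early fallers, 211 were lower, 47 not regulated and 4 higher. The median log2FC of the early risers was 1.29 at 4 h and 1.92 at 24 h, and that of the early fallers -1.34 and -2.06. Those values rest on genes chosen at 4 h. The difference between the times was tested directly: 3314 genes (17.4%) differed, 58.3% of them upwards (73.4% when scaled by library size alone), among them 130 of the early risers and 94 of the early fallers. The change was larger at 24 h for 116 and 78 of these.

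PIK3IP1 and BMF went on rising, from 2.23 to 4.38 and from 3.59 to 4.60. SPRY4 and HAS2 went on falling, from -3.93 to -6.04 and from -2.84 to -5.84. ETV5, an ETS factor of the ERK pathway, had -1.25 at 4 h and -4.41 at 24 h, and its CPM at 24 h were 27.2, 35.4 and 36.6 without and 1.57, 1.62 and 1.43 with afatinib. CYP1A1, a detoxifying enzyme, had 1.13 at 4 h, where only the pairs and not the groups separated, and 3.46 at 24 h. DUSP6, EGR1, MYC and GRB7 differed by less than the fold limit between the times, with differences of -0.72, -0.58, 0.11 and 0.20. Among the genes whose early rise was gone by 24 h, CDC25C had 1.04 and -0.05. The stress gene CHAC1 turned round, with 1.43 at 4 h and -1.02 at 24 h, a difference of -2.45 ± 0.28. Both were chosen after their values were seen. At 24 h the S phase list had 38 fallers of 41, the ribosome biogenesis list 33 of 44 and the G2/M list 27 of 51, against 11.8% of all genes that fell. E2F1 and CCNE2, genes of the G1 to S passage, had log2FC of 0.10 and -0.34 at 4 h and -2.41 and -2.10 at 24 h.

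**Figure D4:**
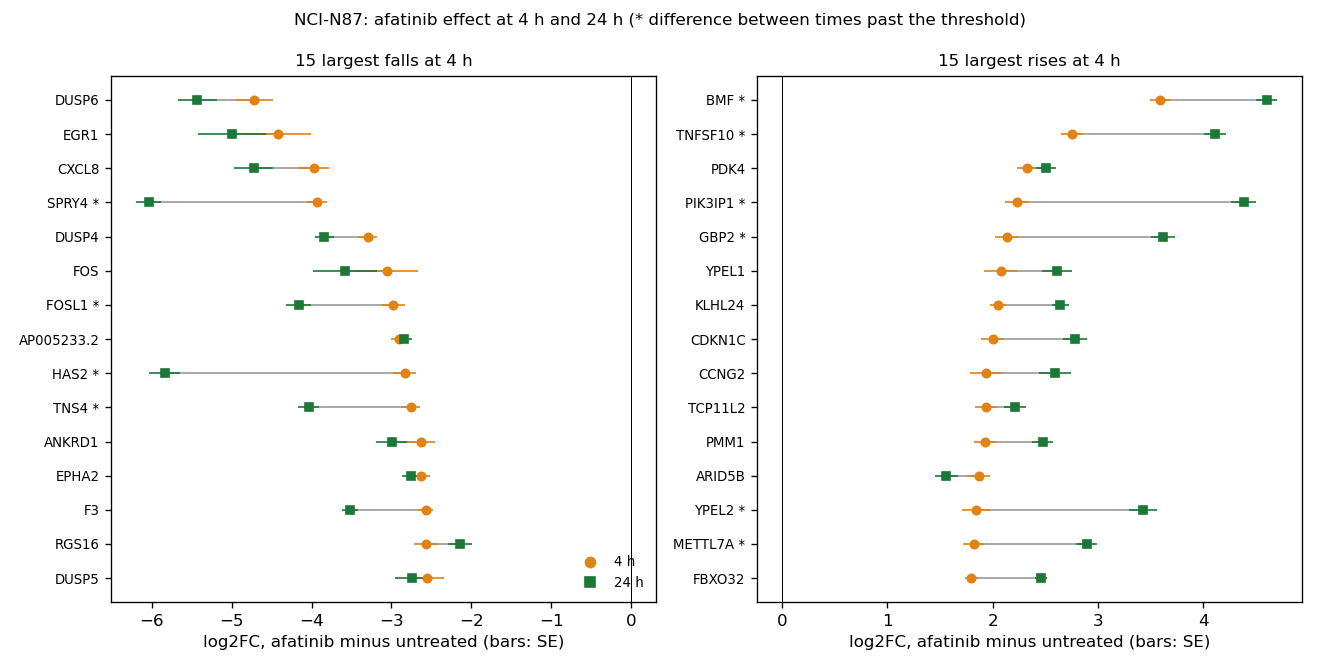
The log2FC of afatinib minus untreated in NCI-N87 cells (x axis, bars are SE) is given at 4 h (orange circles) and 24 h (green squares) for the 15 largest falls (left) and the 15 largest rises (right), with an asterisk where the difference between the times passed the threshold. All 30 genes point the same way at both times, and HAS2 moves furthest, from -2.84 to -5.84.

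The effect was also read in libraries outside the untreated and afatinib groups, with trastuzumab on both sides. They entered the same fit, so filter, estimate of spread and replicate block were shared with the main comparison. Trastuzumab + afatinib against trastuzumab regulated 971 genes (5.09%). Of the 469 risers, 289 (61.6%) rose there too and 457 had the same sign. Of the 262 fallers, 214 (81.7%) fell and 254 had the same sign, with 1 gene regulated in the opposite direction. DUSP6 had 28.2, 53.6 and 43.2 CPM with trastuzumab and 1.32, 1.11 and 1.12 CPM with both drugs. BMF had 2.49, 2.81 and 2.46 against 40.2, 34.0 and 33.9 CPM. For DUSP6 and BMF the log2FC were -5.16 and 3.78, beside -4.71 and 3.59 without trastuzumab. All 30 named genes passed the rule here in their own direction. Trastuzumab alone against untreated, which shares the untreated libraries, gave no regulated gene with edgeR, with 1511 genes at an unadjusted p below 0.05 and 1 (SHB) at p.adjust below 0.05. In it DUSP6 had a log2FC of 0.20 and BMF of -0.21.

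The same effect was then read in MKN7 cells. Of the regulated genes of NCI-N87, 98 risers and 130 fallers had a mean log2 CPM above 1 in both lines. Among these, 33 risers and 69 fallers were regulated in MKN7 in the same direction, against 2.08% higher and 1.59% lower of all genes tested there, with median log2FC of 0.91 and -1.06 there. The difference between the lines, tested over 48 libraries at 4 h, passed the threshold for 298 genes (1.4%), and for 12 of those risers and 19 of those fallers. Without the replicate block 91 genes differed, and 92 of the 298 had a mean log2 CPM above 1 in both lines. CXCL8 went from 34.2, 18.9 and 19.8 to 23.8, 10.9 and 9.17 CPM in MKN7, and the NCI-N87 effect minus the MKN7 effect was -3.18 (p.adjust 2.4e-11). BMF was 3.88, 3.40 and 2.72 CPM in untreated MKN7, near its level in NCI-N87, but reached only 7.08, 6.56 and 8.14 CPM. DKK1, a secreted WNT inhibitor, had 74.4, 142 and 98.7 against 34.5, 43.2 and 42.9 CPM in NCI-N87, but 195, 148 and 127 against 356, 288 and 270 CPM in MKN7. KLF7 went the opposite way too, up in NCI-N87 (1.45) and with -0.61 in MKN7. SPRY4, by contrast, fell further in MKN7, with -5.17. For CDKN1C, CCNG2, FBXO32, MYC and CCND1 the difference was between -0.27 and 0.20 and did not pass the rule.

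Hs746T cells, by the study's account a non-responder, were read in the same way. Of the regulated genes of NCI-N87, 97 risers and 126 fallers had a mean log2 CPM above 1 in both lines. None of them was regulated in Hs746T in the same direction at the fold limit, where 0.0703% of all genes rose and 0.347% fell, and the median log2FC there were -0.03 and -0.0004. The difference between NCI-N87 and Hs746T passed the threshold for 862 genes (4.04%), and for 84 of these risers and 115 of these fallers. Without the replicate block 489 genes differed, and 293 of the 862 had a mean log2 CPM above 1 in both lines. DUSP6 had 35.4, 41.2 and 41.6 CPM in untreated and 44.0, 51.3 and 49.5 CPM in afatinib-treated Hs746T cells. SPRY4 had 55.1, 46.1 and 46.0 against 48.7, 39.5 and 46.5 CPM. BMF had 8.42, 3.54 and 3.22 against 7.89, 3.61 and 3.45 CPM, with replicate 1 the highest in both groups. These genes were thus detected in every Hs746T library, and treated and untreated libraries lay close together.

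**Figure D5:**
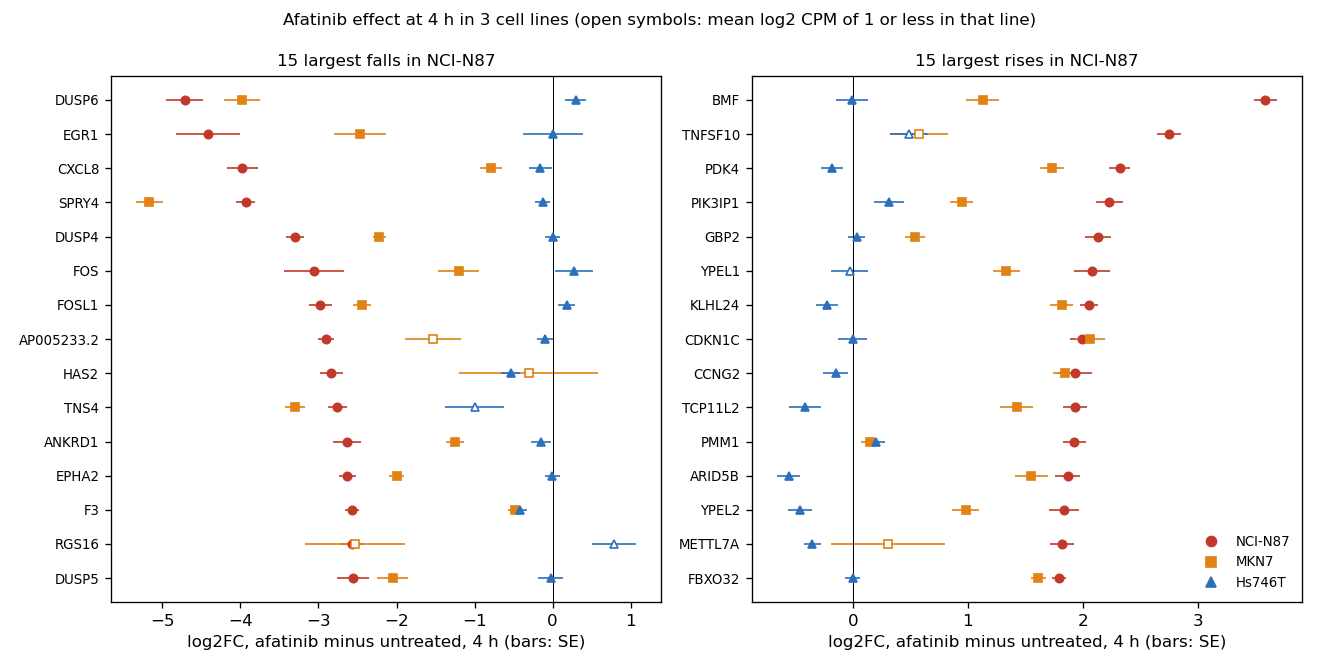
The log2FC of afatinib minus untreated at 4 h (x axis, bars are SE) is given in NCI-N87 (red circles, fit of the NCI-N87 libraries), MKN7 (orange squares) and Hs746T (blue triangles, both from the fit of 48 libraries), with open symbols where the mean log2 CPM was 1 or less. Most MKN7 values lie on the side of NCI-N87, whereas most Hs746T values gather around 0, DUSP6 at -4.71, -3.98 and 0.29 being an example.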

How the data were processed

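RNA-seq libraries (poly(A) RNA, directional kit) were trimmed with Trim Galore and aligned with STAR to hg38, per the submitters' processing notes; versions, counting tool, annotation and strand setting are not given in the sources used here. The authors deposited raw read counts for 65217 gene identifiers per sample, which were used as deposited. Names came from GENCODE release 29; 8404 identifiers without a match held 0.0448% of counts. Promoters were RefSeq sequences of GRCh38.p14.

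Counts of the 24 NCI-N87 libraries (38788878 to 63414173 each) were filtered (filterByExpr, minimum count 10, minimum total 15), scaled by TMM and fitted with edgeR 4.0.16 (quasi-likelihood test, R 4.3.3) with condition means and a block of replicate number within time. Line differences were fitted over the 48 libraries at 4 h of 4 lines, with replicate number within line as block, and values for MKN7 and Hs746T come from that fit. P-values were adjusted by Benjamini-Hochberg over all genes tested. CPM are counts scaled to effective library size. A count floor of 3 equals 0.0496 to 0.0638 CPM in the 6 libraries, which covers counting error only. In NCI-N87 replicate numbers paired the samples: deviations of same-numbered afatinib and untreated libraries correlated at 0.455, 0.315 and 0.505, other pairs at -0.452 to 0.0181. In MKN7 same-numbered pairs correlated at 0.195 to 0.321 and other pairs at most at -0.0032. In Hs746T the ranges overlapped, with 0.180 to 0.548 for same-numbered and up to 0.207 for other pairs. The numbers thus did not clearly pair the Hs746T samples.

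Named genes were the 15 largest rises and falls with 3 concordant pairs whose mean level exceeded 1 on the log2 CPM scale, at most 5 per direction for each difference by the same rule, and list members as examples. Members and gene lists were chosen with earlier results of these data known. The procedure was tested on simulated data. Alternatives were no block, library size scaling, DESeq2 1.42.0, other filters, a fit of the 6 compared libraries alone and leaving out libraries. Results that need certain withheld items are not reported here.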

Additional observations from a re-analysis of the deposited data

Results flagged for a closer look

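Effects differed between groups, by a test of the difference itself (edgeR quasi-likelihood test), for 3314 genes between 24 h and 4 h, for 298 genes between NCI-N87 and MKN7 and for 862 genes between NCI-N87 and Hs746T. The named genes with the largest differences were as follows.

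For the effect at 24 h minus that at 4 h, ETV5 had -3.16, the antisense RNA SPRY4-AS1 -3.03 and HAS2 -3.00, all 3 falling further. CYP1A1 had 2.32, the phospholipase PLA2G10 2.29 and BNIPL 2.26, all 3 rising further.

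For the effect in NCI-N87 minus that in MKN7, CXCL8 had -3.18, DKK1 -2.31 and F3 -2.07. BMF had 2.48, KLF7 2.08 and PMM1 1.79. Without the replicate block 91 genes differed between these lines.

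For the effect in NCI-N87 minus that in Hs746T, DUSP6 had -5.00, EGR1 -4.41 and CXCL8 -3.80. BMF had 3.61, PDK4 2.52 and ARID5B 2.44.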

How the results depend on the processing

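The 731 regulated genes became 435 with at least 10 counts in every library, 6290 with no fold limit, and, in alternatives chosen after seeing the data, 433 with protein-coding genes only and 306 with a mean log2 CPM above 1. Without the replicate block 619 were regulated, and leaving out libraries or replicate numbers gave 605 to 845. With at least 10 counts in every library, trastuzumab + afatinib against trastuzumab fell from 971 to 552 genes, the MKN7 difference from 298 to 142 and the Hs746T difference from 862 to 433. Without the replicate block these line differences were 91 and 489, and with a mean log2 CPM above 1 in both lines (added after seeing the data) 92 and 293. The cause was not tested, apart from the fewer genes that the filters leave. Leaving out libraries gave 3041 to 3445 genes for the time difference, 841 to 1091 with trastuzumab, 244 to 334 for MKN7 and 654 to 1104 for Hs746T. The share of MKN7 differences that were higher in NCI-N87 was 50.3%. It was 67.0% without the replicate block and 66.2% with at least 10 counts in every library. Without untreated NCI-N87 replicate 1 it was 60.8%, and without untreated NCI-N87 replicate 2 it was 39.7%. Scaling by library size alone moved the median log2FC of all genes to 0.0856 at 4 h and 0.290 at 24 h. A fit of the 6 compared libraries alone gave 667 genes with the block and 520 without it, where 306 instead of 469 rose. For the 30 largest changes and 14 further named genes all 745 values that were tested kept direction and call. For genes that were not regulated, such as ERBB2 and EGFR, this means that none was gained. ERBB4 was not among these genes, and without untreated replicate 1 the receptor list had 2 risers instead of 1. CXCL8, CXCL1 and CSF2 were not tested with at least 10 counts in every library. Other list members near the fold limit lost their calls. Of 493 list counts 472 stayed within 1.5 times. Losses beyond that included chemokine fallers from 4 to 2 and interleukin fallers from 4 to 1 with at least 10 counts in every library. BCL2 survival fallers went from 1 to 0 in several alternatives, and KLF fallers from 1 to 0 without replicate number 2. Smaller losses, within 1.5 times, were FOXO risers from 8 to 6 without afatinib replicate 1 or untreated replicate 3. Immediate early fallers likewise went from 8 to 6 without replicate number 2.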

Other observations

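These genes were picked after their values were seen and are given as values. In the MYC network, the repressor genes MXD3 and MXD4, whose products compete with MYC for MAX, rose. MXD3 had 12.5, 18.3 and 19.7 CPM in untreated and 40.2, 45.1 and 51.2 CPM in afatinib libraries (log2FC 1.44 ± 0.10), and MXD4 17.5, 18.2 and 16.5 against 44.1, 40.3 and 37.3 CPM (1.22 ± 0.10). Neither pair of groups overlapped. MXD1 and MAX stayed inside the fold limit with 0.26 and -0.28.

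Of the YPEL genes, YPEL3 rose beside YPEL1 and YPEL2, from 12.9, 16.7 and 15.4 to 46.7, 47.3 and 48.1 CPM (log2FC 1.65 ± 0.14), while YPEL5 had 0.73 ± 0.07. The TRAIL decoy receptor gene TNFRSF10D had 27.1, 30.4 and 29.9 against 18.0, 17.4 and 18.4 CPM, a log2FC of -0.70 ± 0.06 inside the fold limit.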
